A study of Mus musculus with 4 samples.

Results

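The cytoplasmic ribosomal protein genes were followed in mouse round spermatids, the haploid germ cells that follow meiosis, as 85 of the 25965 genes of the deposited table. They were taken by symbol: Rpl and Rps genes, the acidic stalk genes Rplp0, Rplp1 and Rplp2, and Rpsa, without the Rps6k kinase genes and without symbols marked as pseudogenes. By symbol, 33 belong to the small subunit and 52 to the large subunit, and 4 lie on the X chromosome (Rpl10, Rpl36a, Rpl39 and Rps4x). The rule uses symbols and no measured value, although the family was taken up with earlier results of these data known.

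The cells were sorted by flow cytometry from testes of mice on the outbred ICR background, and their RNA was amplified with the full-length Smart-seq2 protocol. Libraries came from mice with the genotype Wfdc15a+/-, the controls (heterozygous 1 and 2), and from mice labelled Wfdc15a-/- (knockout-labelled 1 and 2). Both groups thus carry at least 1 altered copy of Wfdc15a, a gene of the WAP-domain family that holds several protease inhibitors, and the wild-type controls named in the design text were not analysed here. The age of the mice, the part of the gene that was altered, the gate of the sort and whether the 2 libraries of a group came from different mice are not stated by the labels, so p-values measure the spread between these libraries, which may be technical.

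A ribosome is built from one copy of nearly every ribosomal protein, arranged with ribosomal RNA in a small subunit that decodes messenger RNA and a large subunit that joins amino acids. Most of these proteins are encoded by a single active gene with many silent processed copies. In male germ cells the X chromosome is silenced at meiosis, and the autosomal copies Rpl10l, Rpl39l and Rpl36al encode close relatives of proteins whose usual genes are X-linked.

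The coding sequences of these pairs are shown because the values below depend on reads being told apart between the copies. Each run starts at the start codon and is in the sense of the gene, and capitals mark the bases that differ between the partners (GENCODE M21 annotation, mm10 build). Rpl10l is a single-exon gene on the minus strand, coding region chr12:66283716-66284357, and Rpl10 is on the plus strand, coding exons within chrX:74271002-74273064, with the first 180 bases of each given here.
Rpl10l: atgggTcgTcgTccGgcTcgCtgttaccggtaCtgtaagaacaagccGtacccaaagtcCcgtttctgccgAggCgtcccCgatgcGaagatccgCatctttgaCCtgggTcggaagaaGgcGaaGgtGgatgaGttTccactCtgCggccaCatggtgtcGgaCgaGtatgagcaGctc
Rpl10: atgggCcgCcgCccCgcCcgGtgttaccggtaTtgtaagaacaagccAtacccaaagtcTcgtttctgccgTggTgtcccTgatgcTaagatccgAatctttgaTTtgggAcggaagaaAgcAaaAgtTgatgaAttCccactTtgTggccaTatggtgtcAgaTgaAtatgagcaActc
Rpl39l lies on the plus strand, coding region chr16:10174310-10174462, and Rpl39 on the minus strand, coding exons within chrX:37082704-37085127. Both coding sequences of 153 bases are given whole.
Rpl39l: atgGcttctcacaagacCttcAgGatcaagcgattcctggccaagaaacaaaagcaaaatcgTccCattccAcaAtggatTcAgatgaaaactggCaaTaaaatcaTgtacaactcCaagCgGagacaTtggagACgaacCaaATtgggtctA
Rpl39: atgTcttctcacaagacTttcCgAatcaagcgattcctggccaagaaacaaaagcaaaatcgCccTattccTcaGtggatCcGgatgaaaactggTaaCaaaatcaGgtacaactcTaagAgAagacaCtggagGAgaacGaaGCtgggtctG
Rpl36al has 1 exon on the minus strand, coding region chr12:69182819-69183136, and Rpl36a lies on the plus strand, coding exons within chrX:134585717-134587954, again with the first 180 bases.
Rpl36al: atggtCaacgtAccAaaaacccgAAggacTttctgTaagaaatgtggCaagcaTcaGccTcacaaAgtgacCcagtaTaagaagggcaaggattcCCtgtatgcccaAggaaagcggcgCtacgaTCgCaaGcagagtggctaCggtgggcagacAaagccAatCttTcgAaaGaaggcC
Rpl36a: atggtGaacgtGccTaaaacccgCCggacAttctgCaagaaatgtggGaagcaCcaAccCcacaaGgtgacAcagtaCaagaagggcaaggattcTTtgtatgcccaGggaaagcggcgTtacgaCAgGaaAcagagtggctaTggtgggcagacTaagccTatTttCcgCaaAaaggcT

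Over the whole coding sequence, Rpl10l and Rpl10 differed at 98 of 642 bases, Rpl39l and Rpl39 at 23 of 153, and Rpl36al and Rpl36a at 39 of 318. The longest run without a difference was 23, 38 and 24 bases in these pairs. The fourth X-linked gene, Rps4x, has an intronless copy on chromosome 6, listed under the symbol Rps4y2 and annotated by GENCODE M21 as Rps4l, a transcribed processed pseudogene (1 exon, chr6:148354656-148355598, plus strand). Its aligned bases were 80.0% identical to the coding sequence of Rps4x, with 35 bases as the longest identical run.

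Values are RPM, the reads of a gene scaled to the library total, with no adjustment for gene length unless RPM per kilobase of spliced transcript is stated. Library totals recovered from the table ranged from 5774112 reads (heterozygous 1) to 33853604 reads (heterozygous 2), so that 1 read was worth between 0.0295 and 0.173 RPM. Round spermatid markers summed to 3009 to 4241 RPM in every library (11 of 11 tested), and Wfdc15a itself was at 121 and 85.2 RPM in the heterozygous and 82.6 and 59.5 RPM in the knockout-labelled libraries (log2 difference -0.53, limma adjusted p = 0.647), lower in both knockout-labelled libraries but still present in them. Macrophage markers (14 of 15 tested above both heterozygous libraries) summed to 30.7 to 31.3 RPM in the heterozygous and 133 to 402 RPM in the knockout-labelled libraries, and elongating spermatid markers (5 of 5 below) to 1998 to 3754 and 1124 to 1478 RPM. Leydig cell markers summed to 3.16 to 6.41 and 15.7 to 35.5 RPM. Spermatogonial markers (51.2 to 62.0 and 76.0 to 94.0 RPM) were also higher in sum in both knockout-labelled libraries. So were Sertoli cell markers (18.9 to 32.5 and 39.0 to 43.9 RPM), mostly through Clu (10.7 and 25.6 against 37.2 and 29.6 RPM), with 2 of 5 tested above both heterozygous libraries, a median log2 difference of -0.33 and Amh at 0 reads in every library. Endothelial markers were lower in sum, at 27.2 to 31.9 against 19.2 to 25.6 RPM, whereas peritubular and stromal markers summed to 113 RPM in heterozygous 1, 14.6 RPM in heterozygous 2 and 94.5 to 123 RPM in the others.

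Ribosomal protein messenger RNA was a small part of these libraries. The 85 genes summed to 9269 and 9208 RPM in the heterozygous libraries and to 10581 and 7335 RPM in the knockout-labelled libraries. The highest and the lowest sums were thus both in the knockout-labelled group. As a share of the library this was 0.924% ± 0.00430 (SD, n = 2) against 0.896% ± 0.230 (SD, n = 2), a difference of -0.028 percentage points (exact permutation test, two-sided, p = 1, where 2 libraries against 2 cannot go below 0.333). In bulk samples like these, fewer cells of a type and less RNA per cell cannot be told apart.

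A typical member was well above a typical gene. The median member had 78.5 and 82.0 RPM in the heterozygous and 87.1 and 59.2 RPM in the knockout-labelled libraries, and the median of the 15888 tested genes at 12.6, 11.3, 13.1 and 12.7 RPM. Of the 85 genes, 75 were at 10 RPM or more in all 4 libraries, 28 at 100 RPM or more in all 4, and 4 under 10 RPM in all 4. Per kilobase, the median was 92.7, 95.4, 119 and 82.9 RPM for small-subunit and 75.7, 79.1, 87.3 and 57.3 RPM for large-subunit genes, so that the small subunit was higher in each library.

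**Figure D1:**
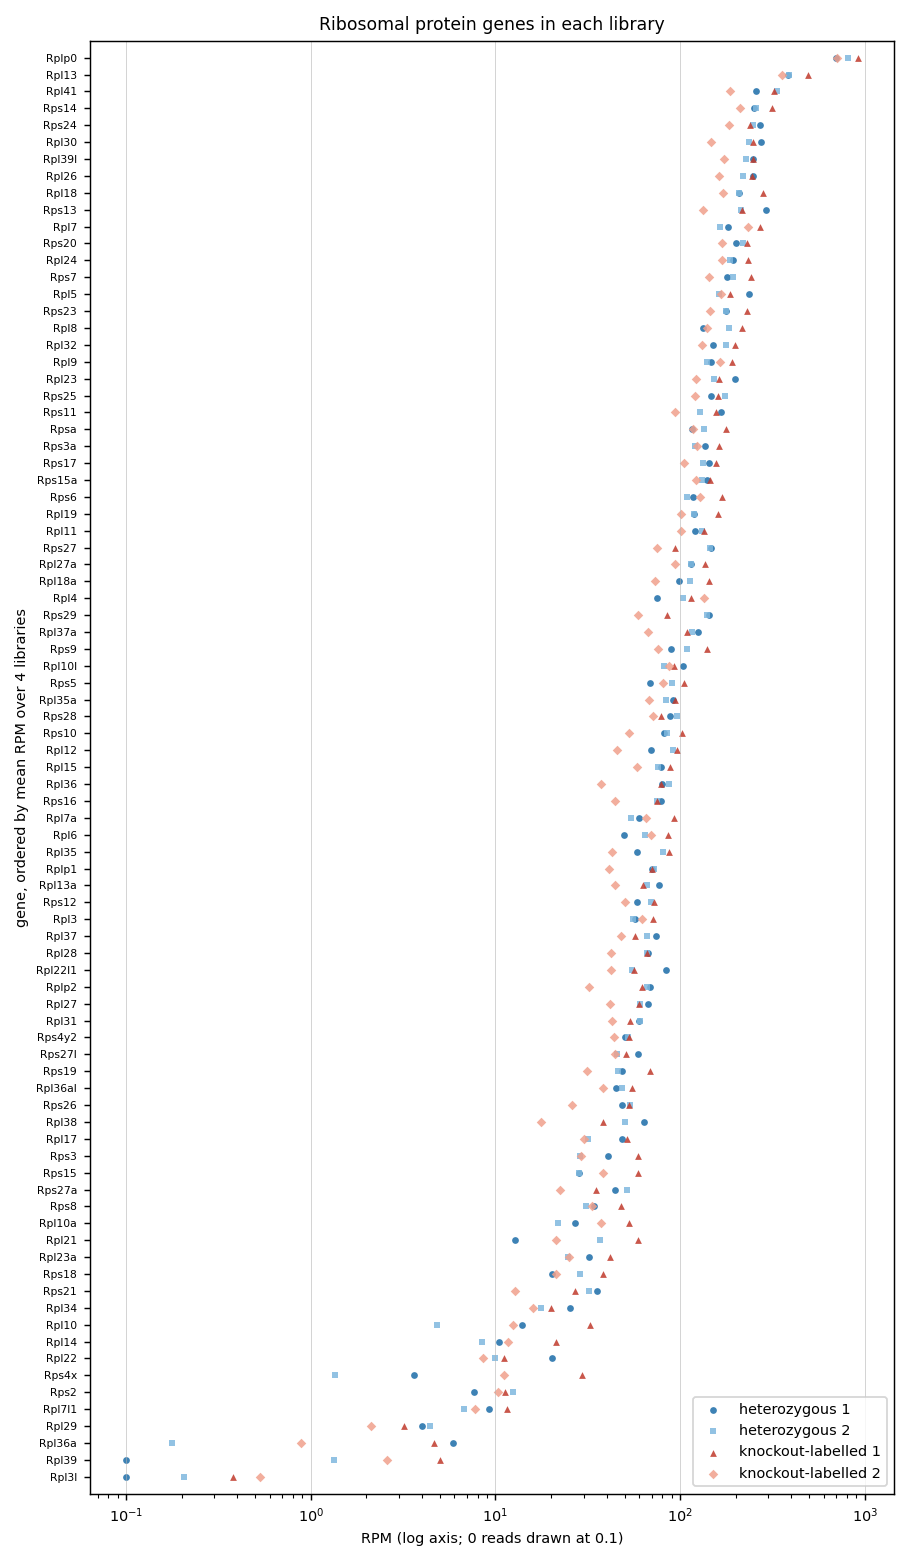
Level of each of the 85 ribosomal protein genes in RPM (log axis, with 0 reads drawn at 0.1), 1 row per gene ordered by its mean, with 1 point per library. 75 genes lie at 10 RPM or more in all 4 libraries, Rplp0 is at the upper end with 697 to 917 RPM, and Rpl3l, Rpl39 and Rpl36a are at the lower end.

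The most abundant gene was Rplp0, which encodes the base of the acidic stalk that recruits elongation factors to the large subunit. It was at 697 and 811 RPM in the heterozygous and 917 and 711 RPM in the knockout-labelled libraries. These groups overlapped, with a log2 difference of 0.10 (95% interval -0.34 to 0.55). Rpl13 followed with 383, 387, 492 and 355 RPM. Rpl41, the shortest member by coding length (75 nt), was at 259, 337, 322 and 186 RPM. For both genes the groups overlapped. The small-subunit genes Rps14 (253, 257, 315 and 210.3 RPM) and Rps24 (272, 249, 240.0 and 185 RPM) completed the 5 highest means, and only Rps24 of these 5 had both knockout-labelled libraries below both heterozygous ones. Per kilobase the order began with Rplp0, Rpl13 and Rpl41, at means of 577, 518 and 474 RPM per kb, and went on with Rps13 and Rpl26, at 363 and 360 RPM per kb.

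The lowest levels belonged to a muscle paralogue and to X-linked genes. Rpl3l, the striated muscle paralogue of Rpl3, had 0, 7, 8 and 6 reads in heterozygous 1 and 2 and knockout-labelled 1 and 2. It was the 1 member that did not reach the filter of 1 RPM in 2 libraries and was not tested. Rpl29, a large-subunit gene on chromosome 9, stood apart among the autosomal parent genes at 3.98, 4.43, 3.21 and 2.13 RPM. Rpl7l1, a paralogue of Rpl7, was at 9.18, 6.76, 11.5 and 7.72 RPM. Rps2, a small-subunit gene picked out with its values in view, had 7.62, 12.5, 11.2 and 10.3 RPM. Genes with many processed copies can lose reads to them, and no source used here states how such reads were counted. Whether this lowered the values of the genes named here was not tested. The table lists 60 rows marked as ribosomal protein pseudogenes, which together held 27.9 to 42.4 RPM per library, none above 5.70 RPM.

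Autosomal copies supplied most of the reads of the X-linked pairs in all 4 libraries. The 4 X-linked genes summed to 23.4 and 7.68 RPM in the heterozygous and 71.7 and 27.1 RPM in the knockout-labelled libraries, and their 4 autosomal copies to 449 and 409 against 450.1 and 342 RPM. The X-linked sums of the knockout-labelled libraries were both above the heterozygous ones, while the sums of the copies overlapped.

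Rpl39l encodes a testis form of the small protein that lines the exit tunnel of the large subunit. It was at 249.7 and 226 RPM in the heterozygous and 249 and 173 RPM in the knockout-labelled libraries, with a log2 difference of -0.20 (95% interval -0.73 to 0.34). The groups overlapped. Its parent Rpl39 had 0 and 45 reads (0 and 1.33 RPM) against 106 and 29 reads (5.01 and 2.57 RPM). Both knockout-labelled libraries were above both heterozygous ones, and the log2 difference of 2.98 (SE 1.13, limma adjusted p = 0.585) depends on the value given to 0 reads. The ratio of the group means was 5.70. Rpl39l held 100% and 99.4% of the RPM of the pair in the heterozygous and 98.0% and 98.5% in the knockout-labelled libraries, and over all 4 libraries its mean was 101-fold that of Rpl39.

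Rpl10l, a retrocopy that takes the place of Rpl10 in germ cells, was at 104 and 82.0 RPM in the heterozygous and 93.1 and 87.2 RPM in the knockout-labelled libraries. Both knockout-labelled values lay between the heterozygous ones (log2 difference -0.04, 95% interval -0.60 to 0.53). Rpl10, whose protein sits near the site where transfer RNA enters the large subunit, was at 13.9 and 4.81 RPM against 32.6 and 12.4 RPM. The lower knockout-labelled library fell just under the higher heterozygous one, so the groups overlapped (log2 difference 1.30, SE 0.57, limma adjusted p = 0.607). Without heterozygous 1, in which Rpl10 was highest among the controls, the difference was 2.06 and passed (limma adjusted p = 0.0147). It was 0.54 without heterozygous 2, 0.61 without knockout-labelled 1 and 1.997 without knockout-labelled 2, and passed in none of these (limma adjusted p = 0.588, 0.999 and 0.832). The share of Rpl10l in the pair was 88.2% and 94.5% in the heterozygous and 74.1% and 87.5% in the knockout-labelled libraries. The means were 91.3% ± 4.40 and 80.8% ± 9.53 (SD, n = 2 each), lower by 10.6 points on the side of the knockout label, with p = 0.333 in the exact permutation test (two-sided), the smallest that 2 against 2 allows. The difference was -3.81 points without knockout-labelled 1 and -17.3 points without knockout-labelled 2.

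Rps4x, a small-subunit gene, had the largest log2 difference among the members. It was at 3.64 and 1.36 RPM (21 and 46 reads) in the heterozygous and 29.5 and 11.2 RPM (624 and 126 reads) in the knockout-labelled libraries. Both knockout-labelled values were above both heterozygous ones, and the ratio of the means was 8.14. The log2 difference of 3.03 (SE 0.62, 95% interval 1.66 to 4.40) did not pass over all genes (limma adjusted p = 0.295), but it passed without heterozygous 1 (3.74, adjusted p = 6.35e-05), without heterozygous 2 (2.32, adjusted p = 0.0122) and without the filter on low values (adjusted p = 3.89e-05). It did not pass without knockout-labelled 1 (2.33, limma adjusted p = 0.999) or 2 (3.73, adjusted p = 0.0814), nor with other scalings, log2(RPM + 1), the 5 RPM filter, no variance trend or voom (adjusted p = 0.115 to 0.441). Its copy Rps4y2 was at 50.4 and 52.3 against 53.1 and 44.0 RPM, with overlapping groups. The share of Rps4y2 was 93.3% and 97.5% against 64.3% and 79.7% (exact permutation p = 0.333, the smallest possible), and this gene lies within Tmtc1 on the opposite strand, from which reads cannot be told apart in a protocol that does not keep strand.

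Rpl36al, the autosomal copy of a large-subunit gene, was at 45.0 and 48.3 against 54.7 and 38.1 RPM, and Rpl36a at 5.89 and 0.177 against 4.63 and 0.887 RPM. Rpl36a was thus high in library 1 and low in library 2 of both groups. Its log2 difference of 0.99 (SE 1.47, limma adjusted p = 0.901) was -1.54 without heterozygous 2 and -0.20 without knockout-labelled 1. The share of Rpl36al was 88.4% and 99.6% against 92.2% and 97.7%.

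The sum of the X-linked members was highest in knockout-labelled 1 and next in knockout-labelled 2. So were the sums of macrophage, Leydig cell, spermatogonial and Sertoli cell markers. The X-linked sum of heterozygous 1 (23.4 RPM) was, however, close to that of knockout-labelled 2 (27.1 RPM). Leydig cell (6.41 and 3.16 RPM) and spermatogonial markers (62.0 and 51.2 RPM) were also higher in heterozygous 1 than in heterozygous 2. Macrophage markers were alike in these libraries (31.3 and 30.7 RPM), and Sertoli cell markers were lower in heterozygous 1 (18.9 and 32.5 RPM). Of the 16 listed macrophage markers 15 were tested, and 1 (Tyrobp) was at 0 reads in both heterozygous libraries. Cd74, an antigen presentation gene, had 4.50 and 0 RPM in the heterozygous beside 133 and 31.1 RPM in the knockout-labelled libraries. Heterozygous 1 had more Rpl10, Rps4x and Rpl36a than heterozygous 2, but less Rpl39 (0 against 1.33 RPM). Its sum of peritubular and stromal markers was also higher, 113 against 14.6 RPM, mostly through Dcn (83.8 against 5.79 RPM). The part of these cells in the X-linked values was not tested. Over all 599 tested genes of the X chromosome, 33.1% were above both heterozygous libraries and 10.4% below both, with a median log2 difference of 0.30. The same values over all 15888 tested genes were 23.5%, 15.0% and 0.07.

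The other 4 pairs are autosomal on both sides, and their paralogues overlapped between the groups where tested. Rpl22l1 exceeded its parent Rpl22, with 84.2 and 55.1 against 56.6 and 42.2 RPM, beside 20.3 and 9.93 against 11.1 and 8.52 RPM for Rpl22. The share of Rpl22l1 stayed between 80.6% and 84.7% in the 4 libraries. Rpl7l1 held 3.22% to 4.78% of its pair and Rpl3l at most 0.852%. Rps27l, a close relative of the zinc-finger protein gene Rps27, was at 59.1 and 45.3 against 50.9 and 44.5 RPM, and Rps27 at 147 and 145 against 94.3 and 74.5 RPM. The Rps27 groups did not overlap, and the share of Rps27l was 28.7% and 23.8% against 35.1% and 37.4% (exact permutation p = 0.333, the smallest possible).

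**Figure D2:**
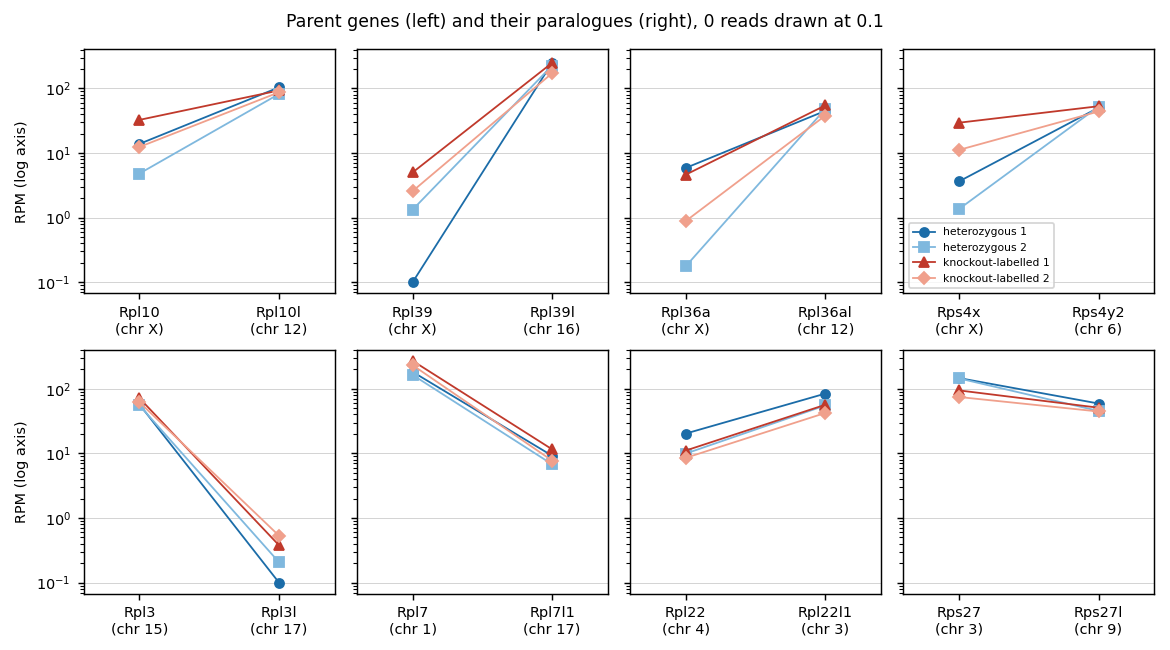
RPM (log axis, with 0 reads drawn at 0.1) of the parent gene (left) and its paralogue (right) in each of 8 pairs, with 1 line per library. In the 4 pairs with an X-linked parent every line goes up to the copy, and the knockout-labelled lines start higher for Rps4x (11.2 and 29.5 RPM against 1.36 and 3.64 RPM).

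Between the groups, no member passed the threshold. With limma, 0 of 84 tested members had an adjusted p under 0.05, as had 0.0% of all 15888 tested genes, and voom on the recovered reads also called 0. At an unadjusted p under 0.05, 6 members were higher and 5 lower in the knockout-labelled libraries, beside 6.21% and 1.87% of all genes. Both knockout-labelled libraries were above both heterozygous ones for 12 members (14.3%, beside 23.5% of all genes) and below both for 17 (20.2%, beside 15.0%), and 55 overlapped. The median log2 difference was -0.06 over the members and 0.07 over all genes. It was between -0.12 and -0.01 under the other scalings and filters, but -0.33 without knockout-labelled 1 and 0.22 without knockout-labelled 2, so its sign depended on which library was left out. Without knockout-labelled 2, 49 members were above both heterozygous libraries, and without knockout-labelled 1, 56 were below. A lone library clears both heterozygous ones more easily than 2 libraries do, so such counts can only stay or rise. The same share over all genes is not given here, so these 2 counts are no result about the members.

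Knockout-labelled 1 was above knockout-labelled 2 in nearly the whole family. This held for 83 of 84 tested members (98.8%), beside 54.6% of all genes, and the exception was Rpl4. The median log2 difference between these libraries was 0.58 over the members and 0.06 over all genes. Heterozygous 1 and 2 were closer: 49 members were higher in heterozygous 1, and the median absolute difference was 0.18, beside 0.49 over all genes. Mitochondrial ribosomal protein genes were higher in knockout-labelled 1 in 57 of 76. The knockout-labelled libraries also differed in macrophage markers (402 and 133 RPM) and spermatocyte markers (356 and 573 RPM). Spermatocyte markers differed between heterozygous 1 and 2 as well (587 and 290 RPM), where the members were close. The part of these cells in the gap between the knockout-labelled libraries was not tested.

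Of the 17 members below both heterozygous libraries, 11 were among the 28 with the shortest coding sequence. Rps29, a zinc-finger protein of the small subunit, was at 144 and 140.3 RPM in the heterozygous and 84.7 and 59.2 RPM in the knockout-labelled libraries. The groups did not overlap, and the heterozygous mean was 1.97-fold the other, with a log2 difference of -1.003 (SE 0.26, limma adjusted p = 0.443, or 0.0432 without the filter on low values). Rps27, given above beside Rps27l, had a heterozygous mean 1.72-fold the other (log2 difference -0.80, SE 0.25, limma adjusted p = 0.512). Rpl38, a large-subunit gene in which mouse mutations alter the pattern of the skeleton, was at 63.9 and 50.5 against 38.2 and 17.7 RPM. The groups did not overlap, and knockout-labelled 2 was the lowest (log2 difference -1.13, SE 0.38, limma adjusted p = 0.544). For Rpl38 the nearest libraries of the groups were closer to each other than knockout-labelled 1 was to 2. Rps27a, which is made as a fusion with ubiquitin, was at 44.5 and 51.8 against 35.2 and 22.3 RPM (log2 difference -0.78, limma adjusted p = 0.596). Rps21 was at 35.7 and 32.2 against 26.9 and 12.7 RPM (log2 difference -0.87, limma adjusted p = 0.611). In both genes the groups did not overlap, but their nearest libraries were closer to each other than knockout-labelled 1 was to 2. Rpl36, Rplp2, Rpl37a, Rpl37 and Rpl13a followed by p, with log2 differences from -0.63 to -0.42 and no overlap. Rpl36 was at 80.2 and 86.7 against 78.5 and 37.2 RPM. In Rpl36, Rplp2, Rpl37a and Rpl13a too, the nearest libraries of the groups were closer to each other than knockout-labelled 1 was to 2. For Rpl37 (74.3 and 65.9 against 56.9 and 48.0 RPM) these gaps were alike. Rpl13a lies over Flt3l on the same strand, and reads of the shared part cannot be assigned to either.

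Of the 12 members above both heterozygous libraries, 9 were among the 28 with the longest coding sequence. Rpl10a, a large-subunit gene on chromosome 17, was at 27.0 and 21.8 against 52.9 and 37.4 RPM. Rps15, a small-subunit gene, was at 28.2 and 28.5 against 59.4 and 38.4 RPM. Rpl7, of the large subunit, was at 183 and 164 against 271 and 232 RPM. In all of these both knockout-labelled libraries were above both heterozygous ones, by log2 differences of 0.88 (SE 0.32, limma adjusted p = 0.577), 0.75 (SE 0.32, adjusted p = 0.596) and 0.53 (SE 0.22, adjusted p = 0.596). Rpl4, the longest member by coding length (1257 nt), was at 75.3 and 104 against 114 and 135 RPM. Rpl14 was at 10.4 and 8.45 against 21.4 and 11.7 RPM. Rpl6, Rpl7a and Rps6 had log2 differences of 0.45, 0.44 and 0.38. Rps6 encodes the protein that S6 kinases phosphorylate, and was at 117 and 109 against 169 and 129 RPM. Except for Rpl7, in each gene named here the nearest libraries of the groups were closer to each other than knockout-labelled 1 was to 2.

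The members were then put in order of length, and the 28 shortest were set against the 28 longest. By spliced length, short members span 345 to 733 nt and long ones 1049 to 5179 nt. At the ends of this range, Rps28 (437 nt) was at 87.6 and 96.2 against 78.8 and 71.2 RPM, and Rps15a, whose annotated principal transcript of 5179 nt is mostly not coding (390 nt), was at 139 and 131 against 144 and 122 RPM. Rps20 and Rpl18, other members with long annotated ends, were at 169 to 231 and 171 to 279.6 RPM with overlapping groups. Because such ends blur the order, coding length was added after the data were seen. By it, short members have at most 396 nt and long ones at least 582 nt, and 17 genes are short and 12 are long by both measures.

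Short members were lower and long members higher in the knockout-labelled libraries, relative to each other. By coding length, 11 of 28 short members (39.3%) were below both heterozygous libraries and 1 (Rpl39) above. Of 27 tested long members, 9 (33.3%) were above and 1 (Rpl13a) below. The 28 members between them had 2 above (7.14%) and 5 below (17.9%). Over all tested genes, 23.5% were above and 15.0% below. The median log2 differences were -0.31, -0.07 and 0.22 in short, middle and long members, and the gap of -0.54 between short and long ranged from -0.61 to -0.50 when each library was left out in turn. It was -0.59 without the X-linked members. By spliced length, 10 of 28 short (35.7%) and 3 of 27 long members (11.1%) were below both heterozygous libraries. The medians were -0.27 and -0.03, and the gap was -0.25. That smaller gap was -0.15 without heterozygous 1, -0.37 without heterozygous 2 and -0.15 with the members cut at their median length.

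The order of short and long members was the same within each group and opposite between the groups. Against each gene's own mean over the 4 libraries, short members by coding length stood above long ones by 0.36 and 0.32 on the log2 scale in heterozygous 1 and 2, and below them by 0.24 and 0.34 in knockout-labelled 1 and 2. Since each gene's deviations sum to 0 over the libraries, these values show how the gap of -0.54 is spread over them and are no separate support for it. The class medians show how this came about: short members were at 0.22, 0.17, 0.14 and -0.46 in heterozygous 1 and 2 and knockout-labelled 1 and 2, and long ones at -0.14, -0.14, 0.38 and -0.12. In knockout-labelled 1 the long members were high, and in knockout-labelled 2 the short members were low. By spliced length the difference between short and long was 0.24, 0.07, -0.05 and -0.14, with the same signs but closer to 0.

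**Figure D3:**
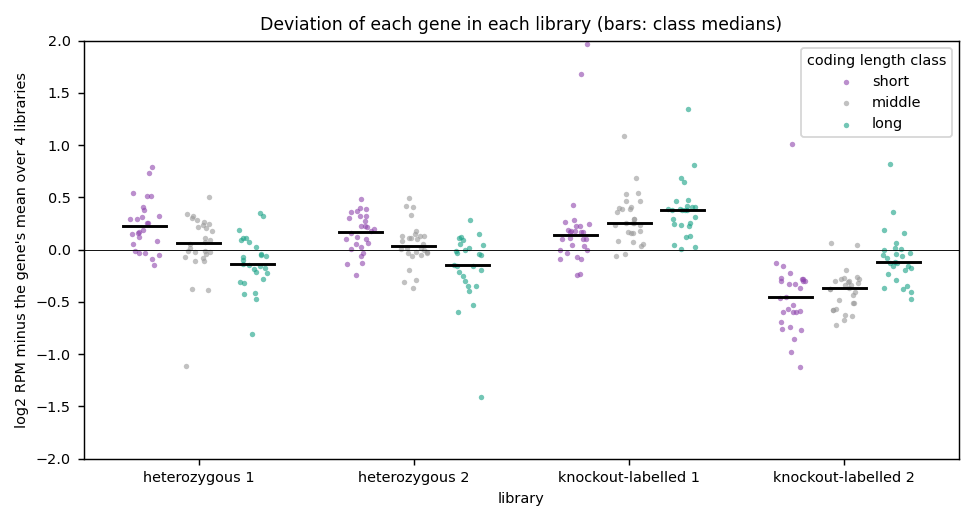
Log2 RPM of each gene minus its mean over the 4 libraries, by library and by coding length class, with bars at the class medians (3 genes have a point outside the drawn range of 2 on either side). Short members have the higher median in both heterozygous libraries (0.22 and 0.17 against -0.14 and -0.14) and long members in both knockout-labelled ones.

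Across genes, which are not independent replicates, Spearman's rho between coding length and the difference between the groups was 0.63 over 83 members and 0.72 over the 79 autosomal ones, while Pearson's r with log2 coding length was 0.29 over the 83. For the difference between the knockout-labelled libraries Spearman's rho with coding length was -0.18, and between the heterozygous libraries 0.0031. With spliced length the group difference gave a rho of 0.29 and an r of 0.14 over 84 members. The points share the same 4 libraries and their depths. Among 5445 other tested genes with a coding length within the range of the members, the same rho was 0.10. Other tested genes within the short bounds (599) had a median log2 difference of -0.07, with 16.7% above and 21.2% below both heterozygous libraries, and those within the long bounds (3974) had 0.05, with 22.8% above and 13.99% below. The class medians of the other genes thus lay on the same sides of 0 and closer to it. By library, however, their short minus long value was 0.063, 0.10, 0.028 and -0.20 in heterozygous 1 and 2 and knockout-labelled 1 and 2, so that knockout-labelled 2 alone was below 0, and their rho for knockout-labelled 1 minus 2 was -0.10. Elongating spermatid markers, whose genes also encode small proteins, were lower in both knockout-labelled libraries, as given above, and their part in the order by length was not tested.

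**Figure D4:**
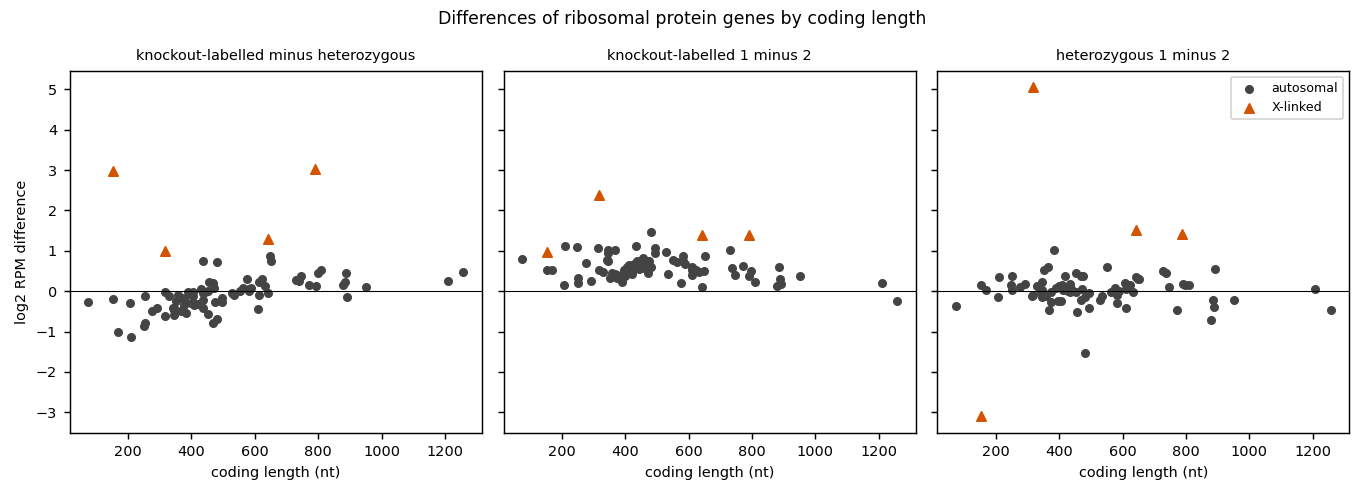
Log2 RPM difference of each member against its coding length in nt, for knockout-labelled minus heterozygous, knockout-labelled 1 minus 2, and heterozygous 1 minus 2. The difference between the groups goes from mostly below 0 for short members to mostly above 0 for long ones (Spearman's rho 0.63), whereas nearly all members are above 0 between the knockout-labelled libraries.

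Levels within the classes were compared per kilobase of spliced transcript. Short members by spliced length had medians of 141, 114, 122 and 84.2 RPM per kb in heterozygous 1 and 2 and knockout-labelled 1 and 2, and long members 55.1, 59.4, 65.0 and 43.1 RPM per kb. In RPM without the division, the medians were 68.8, 64.9, 65.0 and 41.9 for short and 76.9, 83.7, 92.7 and 65.7 for long members. Short members were thus lower per gene and higher per kilobase in every library. The classes were cut by the same length that divides the values, which by itself favours short members per kilobase.

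Many ribosomal protein messenger RNAs start with a C followed by pyrimidines, the terminal oligopyrimidine (TOP) motif, through which their translation is regulated. RefSeq start sites (GRCm38.p6) were found for 64 members with 76 promoters. A C followed by at least 4 bases that are each C or T, searched on the sense strand only, began exactly at the start in 17.1% of these and within 10 bases of it in 53.9%, beside 2.51% and 30.7% of all 32851 promoters. The windows of 30 bases around the start are shown for Rps27 and Rpl38, which were lower in both knockout-labelled libraries, and for the 4 X-linked genes, of which Rps4x and Rpl39 were higher in both. Capitals mark such a run that begins within 10 bases of the start, which is base 16 of each window. They lie at chr3:90213634-90213663 (minus strand), chr11:114668565-114668594 (plus), chrX:102189377-102189406 (minus), chrX:37085208-37085237 (minus), chrX:74270801-74270830 (plus) and chrX:134585639-134585668 (plus).
Rps27: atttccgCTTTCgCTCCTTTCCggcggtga
Rpl38: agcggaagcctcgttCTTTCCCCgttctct
Rps4x: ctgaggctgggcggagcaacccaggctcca
Rpl39: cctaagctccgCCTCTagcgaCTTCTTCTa
Rpl10: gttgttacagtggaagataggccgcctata
Rpl36a: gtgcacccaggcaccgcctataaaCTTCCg
The run was present in the windows of Rps27, Rpl38, Rpl39 and Rpl36a and absent from those of Rps4x and Rpl10. These genes are chosen examples beside 17 members below and 12 above both heterozygous libraries, so they cannot tell whether the motif goes with a direction. The 39 members with the motif within 10 bases had a median log2 difference between the groups of -0.08 (38 tested), and the 25 without it -0.03, both close to the -0.06 of the family. A match of letters is a description and not evidence of a regulated messenger RNA.

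Other genes of the ribosome and of translation were read from lists, and none of their tested genes passed in limma. The counts below stand beside 23.5% of all genes above and 15.0% below both heterozygous libraries, and 6.21% higher and 1.87% lower at an unadjusted p under 0.05. Fau and Gnb2l1, ribosomal protein genes under other symbols, had overlapping groups, with log2 differences of -0.25 and 0.44. Fau, which is made as a fusion with a ubiquitin-like protein, was at 133 and 154 against 151 and 95.6 RPM. Elongation and termination factors had 3 of 14 above (21.4%) and 1 below both heterozygous libraries, shares near or under these, with a median of 0.03 that was -0.03 under median-ratio scaling. Eef1a1, which brings transfer RNA to the ribosome, was at 1192 and 1235 against 1362 and 1370.1 RPM. Abce1, a ribosome recycling factor, was at 92.7 and 87.1 against 122 and 131 RPM. Both were higher in each knockout-labelled library by less than 0.50 on the log2 scale (0.17 and 0.49).

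Ribosome biogenesis factors had 16 of 53 above (30.2%) and 4 below (7.55%) both heterozygous libraries, with a median of 0.19 (-0.034 without heterozygous 2) and 3 at an unadjusted p under 0.05, all higher, which is a share no larger than that of all genes. These were Ncl (nucleolin), at 16.3 and 8.18 against 33.2 and 25.3 RPM, Nat10, an RNA acetyltransferase, at 14.2 and 17.4 against 29.1 and 34.5 RPM, and Gnl3, at 7.45 and 5.58 against 9.12 and 23.5 RPM. The groups did not overlap for any of these. Regulators of TOP messenger RNA and of the mTORC1 kinase had 6 of 14 above (42.9%) and 1 below (7.14%), with a median of 0.18 (0.11 with the 5 RPM filter). Rps6kb1, the S6 kinase gene that acts on the Rps6 protein, was at 1.21 and 3.75 against 5.67 and 12.5 RPM (log2 difference 1.98, SE 0.67, limma adjusted p = 0.550). Mitochondrial ribosomal protein genes had 12 of 76 above (15.8%) and 7 below (9.21%), with a median of -0.02, and 3 higher and 1 lower at an unadjusted p under 0.05, all shares under those of all genes. Mrpl45 was at 7.10 and 4.19 against 19.2 and 10.6 RPM, and Mrps28 at 112 and 105 against 65.4 and 78.7 RPM.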

How the data were processed

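RNA of sorted round spermatids (4 libraries, Smart-seq2 with 15 cycles of PCR, per the labels' protocols, a method that keeps no strand or molecular identifiers) was read from 1 table of log2 RPM values, which the authors deposited with mm10 coordinates. HISAT2 2.1.0, Trim Galore 0.6.6, FastQC 0.11.8 and the mm10 build are listed in the submitters' processing notes. Which tool and annotation were used for counting is not given in the sources used. The log2 values the authors deposited step by whole reads above a lowest value of 0.9 reads, which was read as 0. The share of whole reads within 0.01 of a read was 99.7% to 100.0% per library, with totals of 5774112, 33853604, 21160061 and 11268909 reads for heterozygous 1 and 2 and knockout-labelled 1 and 2. A level of 3 reads is 0.520, 0.0886, 0.142 and 0.266 RPM, which covers counting error only.

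The 15888 genes that reached 1 RPM in 2 or more libraries entered a two-sided test between the groups in limma 3.58.1 (R 4.3.3), fitted to the deposited log2 values with a variance trend along the mean. Its p-values were adjusted over all of these genes by the Benjamini-Hochberg method (threshold 0.05). Ratios are of mean RPM. Exact permutation tests over the 4 libraries have 6 regroupings. Spliced and coding lengths are of the principal transcript in GENCODE M21. Python 3.11.15, pandas 2.3.3, numpy 2.4.6, SciPy 1.17.1, Biopython 1.88 and matplotlib 3.10.9 were used, and the code was tested on simulated data. The members and lists were chosen with earlier results of these data known. Named with values are both genes of each pair, the 5 highest, lowest, shortest and longest members, up to 10 per direction with the smallest p and no overlap, and members of the lists with the smallest p. The result of 1 list is not reported here. Of the members, 19 overlap another listed gene. Alternatives were other scalings, filters, variance models and lengths, a replicate block and leaving out each library.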

Additional observations from a re-analysis of the deposited data

How the results depend on the processing

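Of 44 named members tested, 40 kept their direction in each of the 8 settings with every library that could be run for them and 28 also with each library left out. Rpl29, Rpl36a and Rpl39 had no value with the 5 RPM filter. Against 0 members called, 2 were called without a filter, 1 (Rps4x, limma adjusted p = 2.42e-04) with the replicate block and 0 to 2 when each library was left out, while 0 were called with the 2 other scalings, log2(RPM + 1), a filter of 5 RPM, no variance trend or voom. Same-numbered libraries did not deviate together (r = -0.0761 over genes) and share only a number. Genes called over the whole table numbered 0, and 180 without a filter, 66 with the replicate block, 442 without heterozygous 1, 558 without heterozygous 2, 0 without knockout-labelled 1, 5 without knockout-labelled 2 and 1 with log2(RPM + 1). Leaving out each library in turn, where the lone library is assumed to vary like the other group, gave -0.33 to 0.22 for the median log2 difference, 12 to 49 members above and 17 to 56 below both heterozygous libraries, -0.37 to -0.15 for short minus long by spliced length, -17.3 to -3.81 points for the Rpl10l share and -0.190 to 0.134 points for the share of the library. The counts above and below can only stay or rise when a library is left out. Short minus long was -0.15 with the split at the median length and -0.54 by coding length. The log2 difference of Rpl10l was 3.56e-04 with quantile normalization and 0.017 with voom, that of Rps14 -0.048 with median-ratio scaling, that of Rps15a 0.0054 with quantile normalization and that of Rps2 -0.019 with voom. With 1 library left out in turn the sign also changed for Rpl10l (-0.21 to 0.14), Rpl39l (-0.46 to 0.069), Rpl36al (-0.29 to 0.23), Rpl36a (-1.54 to 3.52), Rps4y2 (-0.22 to 0.047), Rpl7l1 (-0.029 to 0.55), Rps27l (-0.31 to 0.071), Rplp0 (-0.081 to 0.29), Rpl13 (-0.12 to 0.35), Rpl41 (-0.67 to 0.12), Rps14 (-0.28 to 0.30), Rpl18 (-0.29 to 0.43), Rps20 (-0.31 to 0.14), Rps15a (-0.14 to 0.095), Rps2 (-0.21 to 0.50) and Rpl26 (-0.51 to 0.071). The cause of these changes was not tested. Median-ratio scaling shifted the libraries by -0.054 to 0.088 on the log2 scale. Protein length was not run as a measure of length. Depth limits Rpl3l, Rpl39 and Rpl36a, which had 0 to 106 reads.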
